A study of Mus musculus with 8 samples.

Results

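The genes described here are 39 genes of the G1/S transition and of DNA replication, measured in RAW264.7, a mouse macrophage cell line. They were taken by name from the probes of whole-genome expression arrays, and a probe counted as measured where at least 2 of the 8 arrays carried the scanner software's mark for a signal well above background. All 39 genes were measured, out of 20079 genes or unnamed transcripts in all, and 38 were well above background on all 8 arrays. The other one, Ccne2, was dim. Its values are described apart, but counts and medians of the 39 genes include it unless stated.

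The 8 arrays were 1-colour (Cy3) hybridisations of total RNA, 1 array for each of 8 conditions. In 4 conditions the cells received no melatonin, and in the other 4 they received melatonin at 1 mM for 1 h as a pretreatment. Each set held cells without lipopolysaccharide (LPS, an outer membrane component of Escherichia coli that activates macrophages), here called 0 h, and cells given LPS at 100 ng/ml for 1, 3 or 5 h. All cells were of this 1 transformed line, which proliferates in culture, and grew in RPMI1640 with serum. Each set had only 1 condition without LPS, not 1 for each time, so LPS and hours in culture cannot be told apart.

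A cell that commits to S phase first builds its replication machinery. Cyclin E with its kinase partner inactivates the RB family, which frees the E2F transcription factors, and these turn on the genes for origin licensing, helicase loading, the replication fork and the supply of deoxynucleotides. Origins are licensed in G1, when ORC, Cdc6 and Cdt1 load the MCM helicase ring, and fired in S phase, when the Cdc7 and Dbf4 kinase, Cdc45 and the GINS complex activate it. In macrophages, stimulation by LPS is known to slow or stop proliferation. On arrays of whole cultures, fewer cells in S phase and less transcript per cell cannot be told apart.

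Promoters of these genes are known for E2F sites. Of the 39 genes, 34 matched a RefSeq start on GRCm38.p6, and windows of 300 bases, from 250 before to 50 after the start, were searched on both strands. The E2F site searched was TTT, then 2 bases that are each C or G, then CGC. It was present for 14 of the 34 genes (41.2%), against 2.6% of 27025 genes with such a window and 4.32% of the 11503 of these that were measured here. A gene with several annotated starts counted once if any window held the site, which applied to 6 of the 34 genes. Origin licensing genes held it most often, 7 of 8, and none of the 4 genes of nucleotide supply did. A CCAAT box (CCAAT) was present for 61.8% of the 34 genes and 41.1% of all genes, and a cell cycle homology element (TTTGAA or TTCGAA) for 29.4% and 21.7%. For comparison, of 20 matched genes of a G2/M list 5% held the E2F site, 90% the CCAAT box and 80% the cell cycle homology element.

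The 250 bases before the start are shown for 3 genes that fell after LPS and hold the site (Mcm6, E2f7, Uhrf1), for 2 that hold it and were not called after LPS (Orc1, Gins3), and for Tk1, which had the largest fall and no match. Uhrf1 had 2 annotated starts, and the one shown was picked because its window holds the site. The sequences are from RefSeq, 5′ to 3′ in the direction of the gene, and capitals mark the E2F site on either strand.
Mcm6, chr1:128359706-128359955, minus strand: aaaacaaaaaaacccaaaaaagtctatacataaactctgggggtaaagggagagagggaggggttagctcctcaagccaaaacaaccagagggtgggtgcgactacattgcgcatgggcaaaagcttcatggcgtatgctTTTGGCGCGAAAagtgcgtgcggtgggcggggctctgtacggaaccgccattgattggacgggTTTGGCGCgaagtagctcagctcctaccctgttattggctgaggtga
E2f7, chr10:110745189-110745438, plus strand: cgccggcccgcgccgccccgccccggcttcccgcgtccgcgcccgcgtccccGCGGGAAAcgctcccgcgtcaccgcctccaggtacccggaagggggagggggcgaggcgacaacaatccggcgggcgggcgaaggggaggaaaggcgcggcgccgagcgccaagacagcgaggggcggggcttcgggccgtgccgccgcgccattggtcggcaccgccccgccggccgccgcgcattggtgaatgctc
Uhrf1, chr17:56304063-56304312, plus strand: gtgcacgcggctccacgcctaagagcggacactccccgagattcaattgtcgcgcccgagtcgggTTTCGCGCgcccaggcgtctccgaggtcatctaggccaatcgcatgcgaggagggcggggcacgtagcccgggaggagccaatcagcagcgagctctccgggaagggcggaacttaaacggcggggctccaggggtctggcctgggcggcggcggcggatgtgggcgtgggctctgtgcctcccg
Orc1, chr4:108579204-108579453, plus strand: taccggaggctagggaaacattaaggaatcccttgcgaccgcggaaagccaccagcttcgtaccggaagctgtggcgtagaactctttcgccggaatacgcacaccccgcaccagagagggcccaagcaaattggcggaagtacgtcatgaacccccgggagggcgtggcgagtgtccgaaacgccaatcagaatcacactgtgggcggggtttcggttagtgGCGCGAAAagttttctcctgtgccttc
Gins3, chr8:95633309-95633558, plus strand: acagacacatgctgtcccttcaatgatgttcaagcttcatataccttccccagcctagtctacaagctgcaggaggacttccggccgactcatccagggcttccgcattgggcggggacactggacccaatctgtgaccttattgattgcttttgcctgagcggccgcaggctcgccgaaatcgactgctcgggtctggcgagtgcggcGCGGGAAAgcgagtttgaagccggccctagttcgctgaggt
Tk1, chr11:117826015-117826264, minus strand: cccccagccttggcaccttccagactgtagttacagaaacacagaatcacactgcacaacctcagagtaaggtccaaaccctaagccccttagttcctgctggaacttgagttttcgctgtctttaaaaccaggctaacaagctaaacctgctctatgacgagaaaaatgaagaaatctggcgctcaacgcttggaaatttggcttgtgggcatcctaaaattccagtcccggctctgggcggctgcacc
In the Mcm6 window 2 of the 3 sites overlap on opposite strands, their middles 106 and 102 bases before the start, and the other lies 43 bases before it. The middle of the site lay 194 bases before the start in E2f7, 181 in Uhrf1, 37 in Gins3 and 23 in Orc1. Among the 14 genes with a site the median change at 5 h of LPS was -1.20 on the log2 scale (from -3.23 to 0.00), and 12 were called lower. Among the 20 genes with a window and no match it was -0.93 (from -3.72 to -0.19), and 19 were called lower. A match describes letters in a window and says nothing on binding.

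All levels below are log2 processed signals from which each array's own 75th percentile was subtracted, so a difference of 1 is a 2-fold difference, and levels of different probes are not compared. The 75th percentile ranged from 646.7 to 828 signal units, and 46.96% to 52.99% of probes were well above background. The arrays lay on 1 slide with 1 scan time, but the slide's rows follow the melatonin arms and its columns the LPS times, so slide position and treatment cannot be told apart. The treatment field of the melatonin samples gives LPS times a step later than their titles, descriptions and source names; the latter were used. Ccl5, an LPS-induced chemokine, was at 1.99, 3.02, 8.23 and 8.68 at 0, 1, 3 and 5 h without melatonin and at 1.98, 2.60, 7.85 and 8.37 with it, the order of the titles. Tnf, an early LPS target, was at 2.75, 7.55, 8.51 and 8.16 and at 2.57, 6.80, 7.42 and 7.45. Nfkbia, Cxcl2, Ptgs2 and Il1b also had their lowest level in both arms on the array titled without LPS. Of 10 macrophage markers 9 were well above background on all 8 arrays and Mertk on none. Their summed level, relative to the 75th percentile, was 1050, 1090, 1040 and 917 without melatonin and 914, 895, 812 and 818 with it, lowest late and lower with melatonin; its part in the results was not tested. Of markers of other cells, Cd3e, Cd3d and Cd4, of 5 T cell genes on the array, were well above background on all 8 arrays. None of 5 B cell genes was so on all 8, but each was on at least 1 array. Of 5 fibroblast genes 4 were so on no array, and all 4 epithelial genes were so on none.

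Nearly the whole replication programme fell after LPS, late rather than early. No gene of the 39 was called at 1 h, 29 were lower at 3 h and 35 at 5 h, and none was higher at any of these times. The median change was -0.15 at 1 h, -0.74 at 3 h and -1.05 at 5 h, against -0.01, 0.05 and 0.08 over all genes. Called means a Benjamini-Hochberg adjusted p under 0.05 over all 20079 features, in limma's moderated test of an additive model of LPS time and melatonin (3 residual degrees of freedom). Its error is the spread left between the arms, since no condition has a replicate and nothing says how cultures were repeated.

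Over all features, 1.92% were called at 1 h in either direction; 15.2% were called lower at 3 h and 19.3% at 5 h, and 18% and 24.8% higher. Of the 39 genes, 10 at 3 h (with the dim Ccne2) and 20 at 5 h were called and at least 2-fold lower (6.44% and 8.85% of all features). At 1 h, 3 of the 39 genes had an unadjusted p under 0.05, and the smallest adjusted p was 0.172. The split of all calls depended on the scaling: at 3 h 54.1% were higher (42.1% after quantile normalization), and at 5 h 56.2% (43.6%). The 39 genes were called lower under both, 29 and 35 at 3 h and 35 and 36 at 5 h, with no call higher. Quantile normalization called 18.4% of all features lower at 3 h and 23% at 5 h. The 3 h count rested on 2 arrays without melatonin, those at 0 h and at 3 h. Leaving out either lowered it sharply, and the share of all features called lower fell sharply as well. The 5 h count fell less when any 1 array was left out, and the share of all features called lower fell too. Between 1 and 3 h, 17 of the 39 genes were called lower (6.77% of all features). Of all calls there 54.9% were higher, or 42.4% after quantile normalization. The 17 dropped sharply when either array at 1 h or 3 h was left out, as did the lower calls over all features. Without an intensity trend in the variance 8 were called (3.97% of all features were called lower). Between 3 and 5 h none was called (0.0996% of all features), with 17 at an unadjusted p under 0.05 and a median further change of -0.33.

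**Figure D1:**
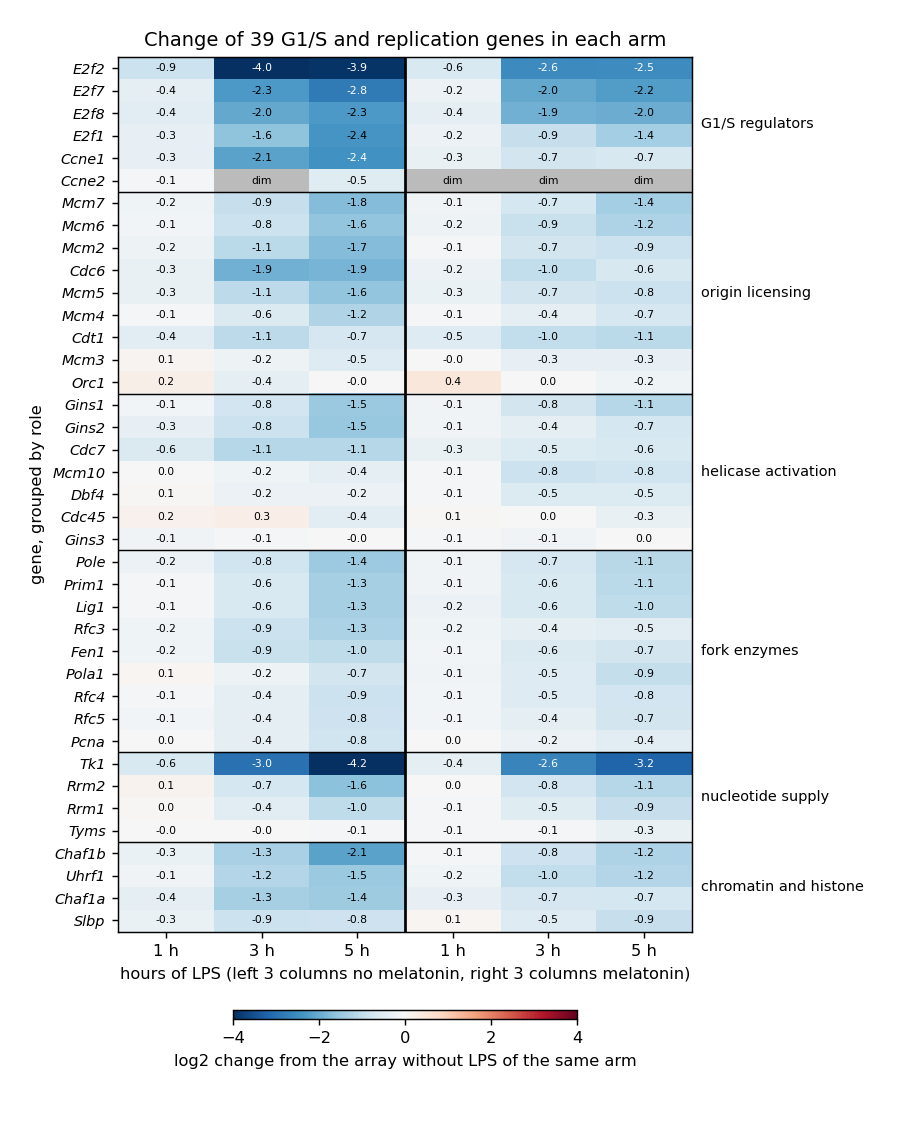
Heat map of the log2 change of the 39 genes (rows, by role) at 1, 3 and 5 h of LPS against the array without LPS of the same arm, without melatonin on the left and with it on the right. Each cell is 1 array minus 1 array, with its value, and grey cells marked dim involve an array on which Ccne2 was not well above background. Blue, a fall, deepens from 1 h to 3 and 5 h in nearly all rows, deepest for Tk1 and E2f2, while Tyms, Orc1 and Gins3 stay pale.

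The regulators of the G1/S transition fell furthest, with a median of -2.15 at 5 h over the 5 genes other than the dim Ccne2, all of which were called by then. E2f2, an activator of S phase genes, was at 3.02, 2.16, -0.99 and -0.91 at 0, 1, 3 and 5 h without melatonin and at 2.69, 2.09, 0.13 and 0.17 with it. Its levels at 3 and 5 h lay below all those at 0 and 1 h in both arms, and no lower at 5 h than at 3 h. The fall was 9.76-fold at 3 h (log2 -3.29, SE 0.39, adjusted p = 0.00302) and 9.37-fold at 5 h (adjusted p = 0.00207), on a probe at chr4:135750562-135750621 (mm9), and the gene's second probe fell alike, by 3.22 at 5 h.

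E2f7 and E2f8 encode the atypical E2Fs, which repress E2F targets later in S phase. E2f8 was at 2.27, 1.85, 0.22 and -0.05 without melatonin and at 1.57, 1.17, -0.35 and -0.41 with it. Here too the arrays at 3 and 5 h did not overlap with those at 0 and 1 h. The fall was 3.94-fold at 3 h (adjusted p = 0.000414) and 4.43-fold at 5 h (log2 -2.15, SE 0.11, adjusted p = 0.000249). E2f7 went from 0.74 and 0.38 to -1.56 and -2.09 without melatonin and from 0.50 and 0.26 to -1.55 and -1.74 with it. It was 5.81-fold lower at 5 h (adjusted p = 0.000358). Of its dimmer probes, one changed by 0.10 and another, well above background on 3 arrays, by -2.36. E2f1, the best known activator, was 3.63-fold lower at 5 h (log2 -1.86, SE 0.25, adjusted p = 0.00289).

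Ccne1, which encodes cyclin E1, was at 3.75, 3.43, 1.62 and 1.34 without melatonin and at 3.09, 2.81, 2.35 and 2.44 with it. Both arms were lower late, but the arm without melatonin lost far more. The mean fall was 2.89-fold at 5 h (log2 -1.53, SE 0.46, adjusted p = 0.0405), and at 3 h it was not called (adjusted p = 0.0597). The 5 h call was lost in 7 of 16 other fits (adjusted p up to 0.229). Ccne2, the other cyclin E gene, was well above background only without melatonin at 0, 1 and 5 h, at -3.34, -3.39 and -3.81. It was not so at 3 h in either arm, nor at any time with melatonin. Its call at 3 h (adjusted p = 0.0443) therefore rests on dim values and no fold is given.

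Of 9 origin licensing genes, 7 were called lower at 3 h and 8 at 5 h, with a median of -1.22 at 5 h. Mcm6, a subunit of the replicative helicase ring, was at 5.83, 5.72, 4.99 and 4.26 without melatonin and at 5.23, 5.02, 4.35 and 3.98 with it. Each arm stepped down from 1 to 3 and from 3 to 5 h. The fall was 1.82-fold at 3 h (adjusted p = 0.00367) and 2.66-fold at 5 h (log2 -1.41, SE 0.11, adjusted p = 0.0006). The ring's other subunits fell by between 0.43 (Mcm3) and 1.55 (Mcm7, 2.92-fold, adjusted p = 0.000495) at 5 h, so the 6 genes of 1 complex did not fall alike. The loaders Cdc6 and Cdt1 reached their fall early: Cdc6 changed by -1.47 at 3 h and -1.24 at 5 h (adjusted p = 0.0181 and 0.0229), and Cdt1 by -1.02 and -0.88 (adjusted p = 0.00357 and 0.00384).

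Orc1, the largest subunit of the origin recognition complex, was the exception among licensing genes. It was at 0.18, 0.42, -0.19 and 0.15 without melatonin and at -0.54, -0.10, -0.54 and -0.70 with it, and the times overlapped. Its change at 5 h was -0.09 (95% interval -0.45 to 0.26, adjusted p = 0.623), and its 2 further probes changed by -0.12 and -0.23.

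Of 7 genes that activate the helicase, 3 were called lower at 3 h and 6 at 5 h. Gins1, a GINS subunit, was at 2.48, 2.35, 1.69 and 1.01 without melatonin and at 1.48, 1.33, 0.73 and 0.34 with it, 2.47-fold lower at 5 h (log2 -1.30, SE 0.12, adjusted p = 0.000832). Its partner Gins2 was 2.16-fold lower (adjusted p = 0.00685). Gins3, of the same complex, did not follow: it lay between 4.05 and 4.19 on the 4 arrays without melatonin and between 3.76 and 3.93 on those with it, and changed by 0.00 at 5 h (95% interval -0.18 to 0.18, adjusted p = 0.975). Cdc7, the kinase subunit, changed by -0.87 and its activator Dbf4 by -0.39 (adjusted p = 0.00794 and 0.0346). Mcm10, a helicase-associated initiation factor, changed by -0.60 (adjusted p = 0.0402) and Cdc45, the helicase cofactor, by -0.37 (adjusted p = 0.049). These small changes were the least firm: the call of Cdc45 was lost in 13 of 16 other fits (adjusted p up to 0.225), that of Mcm10 in 9 (up to 0.202) and that of Dbf4 in 8 (up to 0.191).

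All 9 genes of the replication fork were called lower at 5 h and 7 at 3 h, with changes from -0.61 to -1.28 at 5 h on the probes used. The largest fall on these probes was of Pole, the catalytic subunit of the leading strand polymerase. Pole was at 3.38, 3.16, 2.56 and 1.93 without melatonin and at 3.07, 2.94, 2.39 and 1.95 with it. It was 2.43-fold lower at 5 h (log2 -1.28, SE 0.10, adjusted p = 0.000598). Prim1, the primase, and Lig1, the ligase that joins Okazaki fragments, were 2.31-fold and 2.26-fold lower (adjusted p = 0.000693 and 0.00127). The smallest fall was of Pcna, the sliding clamp, at 1.53-fold (adjusted p = 0.00555). The clamp loader genes Rfc3, Rfc4 and Rfc5, the nuclease gene Fen1 and Pola1, of the priming polymerase, lay between -0.78 and -0.87. Rfc5 rests on its brightest probe, since 2 dimmer probes changed by 0.31 and -0.25. A dimmer probe of Pole changed by -0.68 at 5 h and one of Lig1 by -1.75. The order and the range therefore hold for the brightest probe of each gene only.

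Nucleotide supply held the largest fall and a gene that was not called. Tk1, thymidine kinase of the salvage path, was at 4.82, 4.22, 1.83 and 0.59 without melatonin and at 4.13, 3.75, 1.49 and 0.92 with it. Late arrays lay far below the early ones in both arms, by 7.06-fold at 3 h (adjusted p = 0.00112) and 13.2-fold at 5 h (log2 -3.72, SE 0.23, adjusted p = 0.000365), the largest fall of the 39 genes. The probe lies at chr11:117676845-117676904 (mm9), and 2 further probes fell by 3.55 and 3.46. Tyms, thymidylate synthase, which makes the same nucleotide by the other route, was at 3.85, 3.83, 3.85 and 3.77 without melatonin and at 3.19, 3.13, 3.13 and 2.90 with it. Its change at 5 h was -0.19 (95% interval -0.38 to 0.01, adjusted p = 0.108), and its 2 further probes changed by -0.11 and -0.09. The ribonucleotide reductase genes fell between these: Rrm2 was 2.61-fold and Rrm1 1.94-fold lower at 5 h (adjusted p = 0.00149 and 0.000645).

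All 4 genes of chromatin and histone supply were called lower at 3 h and at 5 h. Chaf1b, of the histone chaperone that loads new nucleosomes behind the fork, was at 3.71, 3.45, 2.41 and 1.57 without melatonin and at 3.02, 2.97, 2.19 and 1.78 with it, 3.22-fold lower at 5 h (log2 -1.69, SE 0.21, adjusted p = 0.00221). Uhrf1, which guides maintenance DNA methylation, was 2.52-fold lower (adjusted p = 0.000651). Chaf1a, the partner of Chaf1b, and Slbp, which binds histone mRNA, changed by -1.05 and -0.89 (adjusted p = 0.011 and 0.0056). Over all roles, 34 further probes of 24 genes passed the filter; 32 were lower at 5 h and 28 lay within 0.5 log2 of the probe used.

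**Figure D2:**
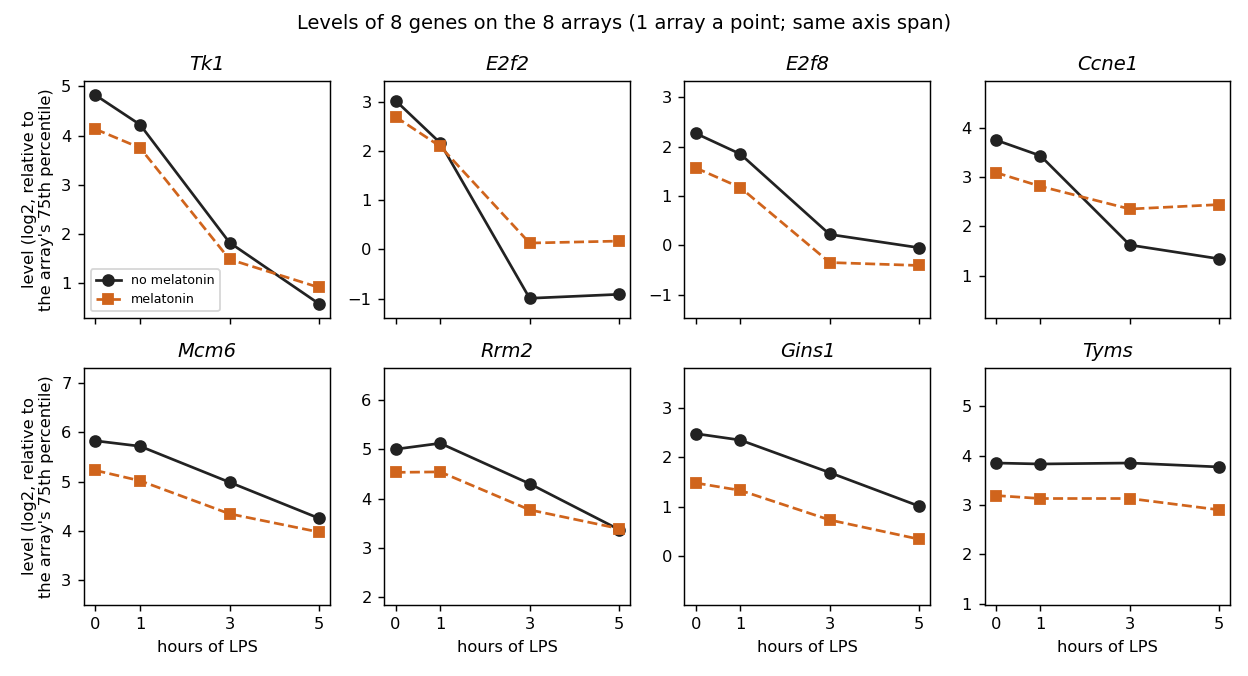
Levels (log2, relative to the 75th percentile of the array; all panels span the same range) of 8 genes against hours of LPS, without melatonin (black circles, solid) and with melatonin (orange squares, dashed); each point is 1 array. Tk1, E2f2 and E2f8 drop mostly between 1 and 3 h, Mcm6, Rrm2 and Gins1 go on dropping to 5 h, and Tyms stays level. The lines of E2f2 and Ccne1 cross between 1 and 3 h. Those of Tk1 and, barely, Rrm2 cross between 3 and 5 h.

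Timing was read in each arm as the share of the 5 h fall already present at 3 h, for genes at least 0.5 log2 lower at 5 h in that arm, 32 of 39 in each (23.1% of all features without and 18.5% with melatonin). With melatonin the 32 genes include the dim Ccne2. These shares rest on single arrays and carry no test. At 1 h the median share was 12.7% without melatonin and 14.7% with it, against 22.5% over all genes in both arms. At 3 h it was 61.7% and 74.9%, against 77.4% and 73.4%. The 5 G1/S regulators other than Ccne2 had reached 88.3% and 96.8% of their fall by 3 h, fork enzymes 46.1% and 57.6%, nucleotide supply (3 genes) 43% and 66.4%, and origin licensing 58.2% and 85.5%. Chromatin and histone supply had reached 86.2% and 76.2% and helicase activation 55.7% and 88.9%. The order of the roles differed between the arms, but so did the genes counted. Helicase activation rested on 3 genes without melatonin and 5 with it, fork enzymes on 9 and 7, and origin licensing on 8 and 7. A different order can therefore come from different genes as well as from different timing. From 3 to 5 h the 9 fork genes were all lower in both arms, as were the regulators E2f1, E2f7 and E2f8. E2f2 was slightly higher at 5 h than at 3 h in both arms.

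With melatonin the programme started lower. The median melatonin difference, melatonin minus none, was -0.33 over all times, and 19 of the 39 genes were called lower and none higher, against 25.5% and 15.2% of all features and a median of -0.10. The split of all calls moved from 37.3% to 49.7% higher after quantile normalization. Under it 13 of the 39 were called lower and Rfc5 higher (0.20, against -0.02 with the main scaling). Over all features 17.9% were called lower there, and 3554 of 20079 higher. Among the called genes the largest differences were of Gins1, -0.92 (SE 0.08, adjusted p = 0.00257), and Tyms, -0.74 (SE 0.06, adjusted p = 0.00224). Both had every melatonin array below every array without melatonin at the same time, and Tyms had no overlap at all between the arms. Orc1 (-0.61), Mcm10 (-0.60), E2f8 (-0.58), Mcm3, Pola1 (both -0.57), Rfc4 and Rrm1 (both -0.56) followed. Tyms, Orc1 and Gins3 (-0.28, adjusted p = 0.0114), the 3 well measured genes not called after LPS, were thus all called lower with melatonin. Gins3 lost that call after quantile normalization (-0.11) and in the deposited log2 values (-0.09).

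The melatonin difference was not the same at all times. Its median over the 39 genes was -0.48 at 0 h, -0.47 at 1 h, -0.32 at 3 h and -0.07 at 5 h, while over all genes it stayed between -0.08 and -0.11. Over all genes, 58.8%, 59.4%, 58.4% and 57.5% were lower with melatonin at 0, 1, 3 and 5 h. At 0 h 39 of 39 genes were lower with melatonin and 19 by at least 0.5 (11.4% of all features), and at 1 h 38 and 18 (13.8%). At 3 h 29 were lower, 11 by at least 0.5 (17.5%), and at 5 h 21, near the share of all genes, 8 by that much (16.5%). Ccne1 and E2f2 were at least 0.5 higher with melatonin at 3 h and, with E2f1, at 5 h (16.4% and 15.3% of all features). The dim Ccne2 is among the genes at least 0.5 lower at 0, 1 and 5 h. All these differences are 1 array minus 1 array and have no test. After quantile normalization the medians were -0.41, -0.39, -0.13 and 0.03, so the 3 h value was smaller and the 5 h value changed sign.

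Seen by arm, the fall at 5 h had a median of -1.32 without melatonin and -0.85 with it, and 31 of 39 genes fell further without melatonin, against 52.8% of all genes. The arrays at 0 h enter both the starting level and the fall, so the lower start and the smaller fall with melatonin are not separate results. A late term, the melatonin difference at 3 and 5 h minus that at 0 and 1 h, was fitted in a model with 2 residual degrees of freedom. The error of this model is how far the melatonin difference varied between 0 and 1 h and between 3 and 5 h. Neighbouring times thus stood in for replicates. The late term was above 0 for 30 of 39 genes (52.1% of all genes), with a median of 0.25 (0.01 over all genes). Of the 39 genes, 17 had an unadjusted p under 0.05. After adjustment Ccne1 (1.55, SE 0.14) and E2f2 (1.29, SE 0.13) were called higher, both at adjusted p = 0.0338, against 0.423% of all features. Both calls were lost after quantile normalization, where the values were 1.47 and 1.21. Both were also lost without any 1 of the 4 arrays at 0 and 1 h. That of E2f2 was lost without the melatonin array at 3 h or either array at 5 h as well. Without the array at 3 h without melatonin both held, and more of the 39 genes and of all features were called. The term for melatonin under any LPS against none called no gene of the 39, none at an unadjusted p under 0.05, and 0% of all features, of which 756 had an unadjusted p under 0.05.

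**Figure D3:**
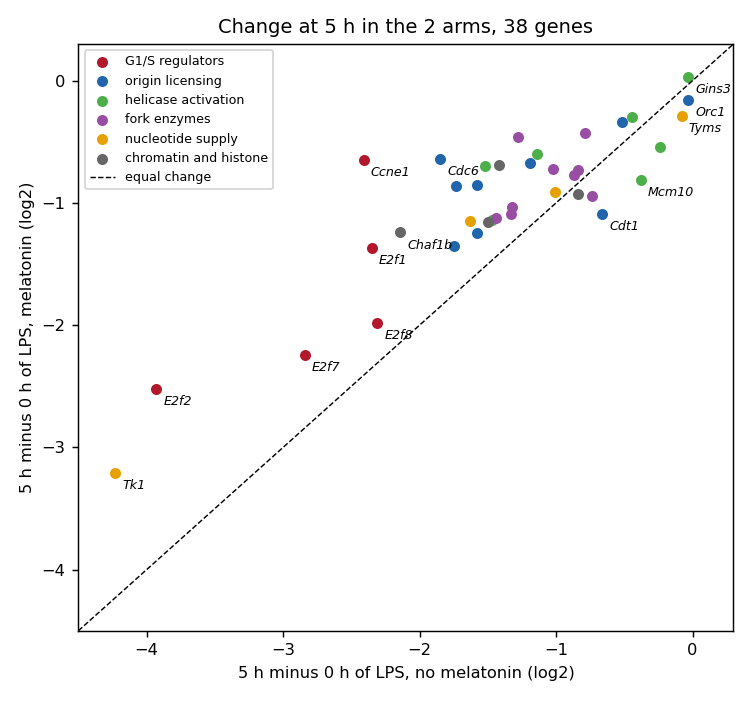
Log2 change from 0 to 5 h of LPS without melatonin (x axis) against that with melatonin (y axis) for 38 genes coloured by role (Ccne2, dim with melatonin, is left out); each point is 1 gene, each change 1 array minus 1 array, and the dashed line marks equal change. Most points lie above the line, a smaller fall with melatonin, with Ccne1 (-2.41 and -0.65) farthest from it; Cdt1, Mcm10 and a few more lie below.

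Genes of the later cell cycle moved the other way between the arms on these arrays. For 25 genes of G2 and mitosis, a list of mitotic kinases, kinesins and their regulators, LPS called 19 lower at 3 h and 23 at 5 h and none higher, much like the 39 genes. Their median melatonin difference was -0.30 at 0 h, -0.29 at 1 h, -0.65 at 3 h and -1.05 at 5 h, and 25 of 25 were lower with melatonin at 5 h, all by at least 0.5. Their median fall at 5 h was -0.95 without melatonin and -1.74 with it. Mki67, the proliferation marker, was at 5.49, 5.51, 4.48 and 4.16 without melatonin and at 5.21, 5.09, 3.59 and 3.13 with it. Foxm1, a driver of G2/M transcription, was at 2.70, 2.28, 0.94 and 0.72 and at 2.36, 1.99, 0.37 and -0.27. The late term was below 0 in 25 of 25 of these genes (median -0.59) and above 0 in 30 of the 39, and after quantile normalization it was below 0 in 25 of 25 and above 0 in 32 of 39; none of the 25 was called, and the difference between the lists was not tested.

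**Figure D4:**
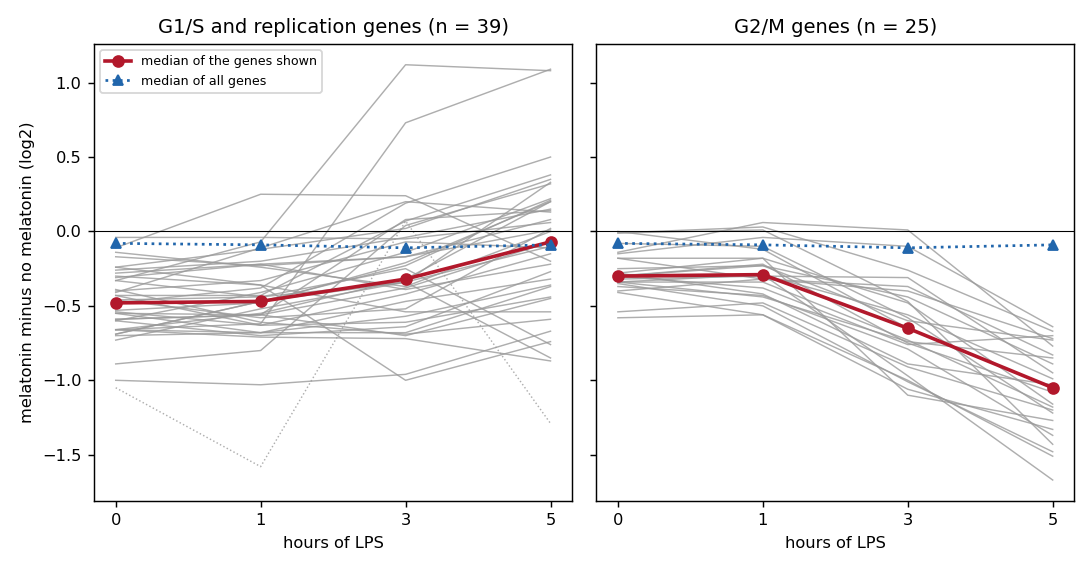
Melatonin minus no melatonin (log2, 1 array minus 1 array) at 0, 1, 3 and 5 h of LPS for the 39 G1/S and replication genes (left; Ccne2 dotted) and 25 G2/M genes (right), grey lines for genes, red circles for the median of the genes shown and blue triangles for the median of all genes. The left medians rise from -0.48 to -0.07 and the right ones fall from -0.30 to -1.05, while all genes stay between -0.08 and -0.11.

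Other genes of the same processes were taken from lists by function; their counts at 5 h stand against 19.3% of all features called lower and 24.8% called higher. Of 38 other licensing and replisome genes, 30 were called lower and 3 higher at 5 h (median -0.82). Wdhd1 (-2.51, SE 0.26, adjusted p = 0.00127), which couples helicase and polymerase, Gmnn (-2.39, adjusted p = 0.00173), the inhibitor of Cdt1, and Dscc1 (-2.23, adjusted p = 0.000358), of an alternative clamp loader, changed most. The 3 that rose were Orc3, Orc4 and Pole4, by 0.44 to 0.79. Of 18 genes of the replication checkpoint and fork repair 15 were called lower and 0 higher (median -1.34), among them Fanci (-2.30) and Brca1 (-1.85), of fork repair. Of 22 other genes of nucleotide supply 8 were lower and 3 higher (median -0.24): Dut, which clears dUTP, changed by -1.30, Paics, of purine synthesis, by -0.81, and Rrm2b, the ribonucleotide reductase subunit used outside S phase, by 0.72.

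Upstream regulators were mixed. Of 13 RB and E2F regulators 8 were called lower and 2 higher at 5 h, with Tfdp2, a partner of E2Fs, at -3.30 (SE 0.15, adjusted p = 0.00018), Rbl2 at -2.07 and Rb1 at -1.03 (adjusted p = 0.00094). Of 11 G1 cyclins, kinases and phosphatases 5 were lower and 3 higher, the latter near the share of all features. Ccnd1, cyclin D1, which starts RB inactivation, was at 4.18, 3.80, 2.10 and 1.81 without melatonin and at 3.64, 3.42, 2.60 and 2.31 with it. It was lower at 5 h (-1.85, adjusted p = 0.00465), its arms crossed between 1 and 3 h as those of Ccne1 did, and its late term was 0.96 (adjusted p = 0.0338). That call was lost with a common floor and with no intensity trend in the variance, where the late term called 0 of 20079 features. It was also lost with no filter and with the mean of a gene's probes, where no feature was called higher. Quantile normalization and the deposited log2 values called only 1 feature each higher. Cdk6, a partner of D cyclins, rose by 2.11 (adjusted p = 0.00035), and Ccna2, cyclin A2, fell by 1.58. Of 7 CDK inhibitors 4 were measured: Cdkn1a (p21) rose, from 3.63 to 5.33 at 1 h and 4.80 at 5 h without melatonin and from 4.42 to 5.53 and 5.22 with it (0.98 at 5 h, adjusted p = 0.00371). Cdkn2c, Cdkn1b and Cdkn2d were lower (-2.29, -1.32 and -1.29). Myc was at -6.74, -0.21, 2.04 and 1.67 without melatonin and at -6.60, -4.18, -1.04 and -0.88 with it; both arrays at 0 h were not well above background, so no fold is given.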

How the data were processed

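The deposited intensity of each spot is, per the file headers, Agilent Feature Extraction's processed signal (version 12.0.3.1, also in the submitters' processing notes). The deposited log2 values of the series have identical sorted values across the 8 arrays, a property of quantile normalization; how they were made is not stated, and they served as an alternative. Scores used were, per the file headers, 0 or 1 flags of spots well above background, saturated or outlying; no spot was saturated. The number of arrays limits the precision.

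Control spots (3671 of 62976) and outliers were left out, spots of a probe averaged (56605 probes), and log2 processed signals set against the array's 75th percentile. Each gene was represented by its brightest probe on average. R 4.3.3, limma 3.58.1 (lmFit, eBayes with intensity trend) and version 1.17.8 of data.table were used, with Benjamini-Hochberg adjustment over all features and 2-sided p-values. In simulated data the fits recovered the size and direction of changes put in. The simulated noise was independent between arrays, so this does not check the p-values of these arrays. Each p-value measures only the spread between these arrays.

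The members and lists were chosen with earlier results of these data known. All 39 genes could be named; levels on 8 arrays are given for the largest changes at 5 h, the largest melatonin differences and exceptions, and of each other list the 3 largest called changes at 5 h with Cdkn1a, Ccnd1, Rb1, Myc and Mki67; 1 gene that this rule names is not reported here. Alternatives were quantile normalization, normexp background (offset 50), the deposited table, 2 other filters on dim probes, a common floor, no intensity trend, the mean of a gene's probes, and leaving out each array. Probe coordinates are mm9, promoters GRCm38.p6.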

Additional observations from a re-analysis of the deposited data

Results flagged for a closer look

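Ccne1, with a late term of 1.55, and E2f2, with one of 1.29 (log2), were called for a different course after LPS between the arms. The test was of that term (limma, adjusted p = 0.0338 for both, 2 residual degrees of freedom). Neighbouring times stood in for replicates in it, so the p-value does not measure a spread between repeated cultures. Ccne1 was 0.66 and 0.62 lower with melatonin at 0 and 1 h and 0.73 and 1.09 higher at 3 and 5 h. E2f2 was 0.33 and 0.07 lower with melatonin at 0 and 1 h and 1.12 and 1.08 higher at 3 and 5 h. The second E2f2 probe gave 0.28 and 0.07 lower, then 1.23 and 1.01 higher; Ccne1 had 1 probe. Ccne1 was called in 6 and E2f2 in 3 of the 16 other fits, which include those that leave out 1 array.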

How the results depend on the processing

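No gene of the 39 reversed under an alternative in a comparison where the reported fit called it; Rfc5, not called for melatonin (-0.02), was called higher with quantile normalization (0.20) and in the deposited table (0.22). Of the 35 genes called at 5 h, 25 kept the call under all 8 settings and each left-out array (not Ccne1, Cdc45, Cdc6, Cdc7, Chaf1a, Dbf4, Mcm10, Mcm3, Rfc3 and Rfc5), as did 10 of 29 at 3 h, 1 of 17 (E2f7) between 1 and 3 h, 9 of 19 for melatonin and 0 of 2 for the late term. When 1 array was left out, the count ranged from 10 to 31 at 3 h, from 26 to 33 at 5 h, from 2 to 25 between 1 and 3 h, from 13 to 21 for melatonin and from 0 to 7 for the late term, and was 0 at 1 h, between 3 and 5 h and for melatonin under any LPS; the last could not be fitted without either array at 0 h. The share of all features called lower moved with the left-out array too. This held at 3 h, at 5 h, between 1 and 3 h and for melatonin. These ranges therefore do not describe the 39 genes alone. The late term called 0 genes with quantile normalization, the deposited table, no filter, the common floor, no intensity trend or the mean of probes. Where all 8 arrays had to be well above background it called 4 (with Cdc6 and Chaf1a), against 350 of 16485 features in either direction. Between 1 and 3 h 8 genes were called without an intensity trend (3.97% of all features were called lower). The median melatonin difference at 3 h was -0.13 with quantile normalization and -0.12 in the deposited table, against -0.32 as reported; with quantile normalization the median of all genes moved as well, from -0.11 to -0.02. The cause was not tested. No paired analysis was possible because conditions have no replicates; the additive model already matches the arms by time. Dim signals limit Ccne2 alone among the 39 genes.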
